A study of Homo sapiens with 6 samples.

Results

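The cytosolic ribosomal protein genes are the genes for the proteins of the 60S and 40S subunits of the ribosome that works in the cytoplasm. They were taken from the deposited count table by name, as RPL or RPS with a number and an optional A, X or L, with RPLP0, RPLP1, RPLP2 and RPSA added and pseudogenes and chromosome Y left out. This gave 81 genes of 39293, of which 49 belong to the large and 32 to the small subunit. RNA came from SW480, an established line of human colorectal cancer cells of epithelial type. The DHA group is 3 wells kept for 4 h with 20 µg/mL of dihydroartemisinin (DHA), a compound into which artemisinin drugs against malaria are converted in the body. The control group is 3 wells kept for as long with 0.1% DMSO, the solvent. The labels tell neither the DMSO content of the DHA wells nor whether the wells were separate cultures, and a p-value here reflects the spread among wells, part or all of which may be technical. Poly(A) RNA was sequenced to find the transcripts that differ after the compound.

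Each ribosome carries 1 copy of most of these proteins, which are made together with the ribosomal RNA and assembled in the nucleolus before they are exported. Proteins that are not built into a subunit are degraded, and free RPL5 and RPL11, which carry the 5S ribosomal RNA, bind the ubiquitin ligase MDM2. The mRNAs of ribosomal proteins start with a C followed by a run of pyrimidines, the 5′ terminal oligopyrimidine (TOP) tract, through which the kinase mTORC1 and the RNA-binding protein LARP1 control their translation and stability. Colorectal tumours are known for a high output of ribosomes.

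The start of the transcript is the sequence that the genes share. RefSeq (GRCh38.p14) listed a start for 64 of the 81 genes, and 46 of the 64 (71.9%) had a C at the start with C or T at each of the next 4 bases, against 1402 of 27195 genes in all (5.16%). Where several starts were listed for a gene, the one with the longest tract was taken, for every gene in the same way. The windows below run from 10 bases before the start to 20 bases from it on, 5′ to 3′ on the strand of the gene, with the tract in capitals. The first 5 belong to genes that were among the highest in DHA over control, the next 5 to genes that were lower in DHA, and the last 3 to RPL39, whose tract was the longest, and to the paralogs RPS27 and RPS27L.
RPS12 (chr6:132814559-132814588, plus strand): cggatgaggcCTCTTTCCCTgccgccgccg
RPLP1 (chr15:69452808-69452837, plus strand): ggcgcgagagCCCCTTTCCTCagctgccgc
RPS21 (chr20:62387093-62387122, plus strand): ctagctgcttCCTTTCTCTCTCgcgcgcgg
RPLP2 (chr11:809957-809986, plus strand): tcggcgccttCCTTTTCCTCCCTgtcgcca
RPL10 (chrX:154398367-154398396, plus strand): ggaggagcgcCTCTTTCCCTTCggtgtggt
RPL26 (chr17:8383174-8383203, minus strand): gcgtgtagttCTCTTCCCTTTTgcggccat
RPL36A (chrX:101391001-101391030, plus strand): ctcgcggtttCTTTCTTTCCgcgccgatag
RPS10 (chr6:34426050-34426079, minus strand): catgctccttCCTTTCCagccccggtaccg
RPS23 (chr5:82278335-82278364, minus strand): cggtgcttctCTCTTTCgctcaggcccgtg
RPL17 (chr18:49492446-49492475, minus strand): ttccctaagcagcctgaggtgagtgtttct
RPL39 (chrX:119791611-119791640, minus strand): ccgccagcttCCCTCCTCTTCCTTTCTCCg
RPS27 (chr1:153990752-153990781, plus strand): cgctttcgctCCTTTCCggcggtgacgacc
RPS27L (chr15:63157458-63157487, minus strand): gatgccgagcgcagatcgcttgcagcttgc
Both the highest and the lowest genes thus carried a tract, and of these 13 starts only those of RPL17 and RPS27L had none.

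The DHA libraries held 14810697, 16653074 and 14291726 counts, and the control libraries held 18938456, 15807037 and 16681847. At these totals 3 counts are worth between 0.158 and 0.210 CPM in a library, CPM being the count scaled to a common library total. Of the epithelial markers 7 of 10 averaged at least 1 CPM, with CDX1 at 0. Their summed level ran from 5476 to 5622 CPM in DHA and from 4241 to 4635 CPM in control. Of the markers of fibroblasts, immune cells and endothelium, 1 of 8, 1 of 8 and 1 of 6 averaged at least 1 CPM. Their sums ran from 71.1 to 93.6 CPM in DHA and from 21.8 to 29.8 CPM in control for fibroblasts, from 3.54 to 5.74 and from 0.443 to 1.16 for immune cells, and from 2.57 to 3.36 and from 1.8 to 2.72 for endothelium. The marker sums of epithelium, fibroblasts and immune cells were higher in DHA, and their part in the results was not tested. The fibroblast sum was mostly COL1A1, with a mean of 78.8 CPM in DHA and 25.1 CPM in control. The immune sum was mostly CD14, with means of 4.21 and 0.527 CPM. Of the epithelial markers KRT8, KRT18 and KRT19 were higher, CDH1 was lower, and EPCAM, KRT20 and CDX2 did not pass. COL1A2, DCN, LUM, PTPRC and CD3D were at 0 counts in all 6 libraries.

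The libraries numbered 2 stood apart in these genes, and also in genes at large. Of 79 tested members, 68 were higher in DHA 2 than in both other DHA libraries, 24 of them at least 1.5 times as high as the mean of DHA 1 and DHA 3. In control 2, 52 members were lower than in both other control libraries. DHA 1 and DHA 3 lay within 10% of each other for 70 members. A chi-square per member, which is about 1 where libraries differ by sampling noise alone, was 402 for DHA 2 against DHA 1, 422 for DHA 2 against DHA 3 and 5.5 for DHA 1 against DHA 3. It lay between 15.3 and 70.1 among the control libraries. Taken per gene and not only over members, the values for the same DHA pairs were 12.9, 13.1 and 1.65. Control 2 gave 8.03 against control 1 and 7.7 against control 3, and control 1 against control 3 gave 3.1. This measure grows with the counts of a gene, and the members are strongly expressed. Results are therefore also given without DHA 2, and without both libraries numbered 2, which leaves 2 libraries a group. Both fits take out libraries that stood apart, so their p-values and calls rest on a smaller spread than that of all 6 libraries.

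Ribosomal protein transcripts took a larger share of the library in DHA than in control. The 81 genes held 4.61%, 5.52% and 4.55% of all counts in the DHA libraries, against 3.79%, 3.62% and 3.90% in the control libraries. Every DHA library lay above every control library, and DHA 2 was the highest. The mean was 4.89% ± 0.545 in DHA and 3.77% ± 0.142 in control (SD, n = 3 each), a ratio of 1.30, which was 1.21 without DHA 2 and 1.19 without both libraries numbered 2. The exact permutation test gave p = 0.1, 2-sided, the smallest that 3 against 3 allows. The large subunit ratio was 1.28 and that of the small subunit 1.33. The 95% Wilson intervals of the 6 shares, which cover counting error only, extend at most 0.011 percentage points to either side. In bulk RNA more transcript per cell cannot be told apart from less of the other RNA, nor from a change in the number of cells. Transcripts of the mitochondrial genome moved as well, at 13.1%, 11.6% and 13.3% of counts in DHA and 7.84%, 9.3% and 8.69% in control. With those genes left out of the total, the ribosomal protein ratio was 1.36.

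**Figure D1:**
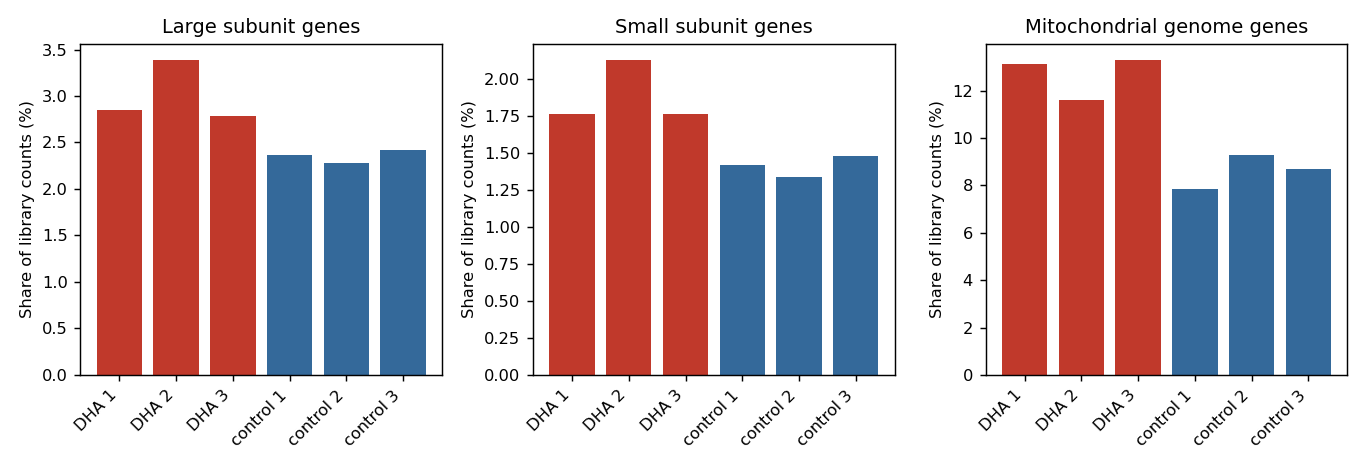
Share of all counts of a library, in percent, taken by the large subunit genes, the small subunit genes and the genes of the mitochondrial genome; each bar is 1 library, red for DHA and blue for control. In all 3 panels each DHA bar is above each control bar, and DHA 2 is the highest bar for both subunits and the lowest DHA bar for the mitochondrial genes.

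Most ribosomal protein transcripts were higher in DHA, by a modest amount. By the quasi-likelihood test of edgeR over 15811 genes, at a Benjamini-Hochberg adjusted p under 0.05, 54 of 79 tested members were higher and 6 lower, and 19 did not pass. Of all tested genes 59.6% passed, 29.6% as higher and 30.1% as lower. The median log2 fold change of the members was 0.51, and 0.01 over all tested genes. Of the 54 higher genes, 49 lay between 0.2 and 0.85 on the log2 scale, and RPL3L, RPS12 and RPLP1 were the 3 that rose by at least 2-fold. Large and small subunit genes gave similar counts, with 33 higher and 3 lower of 47 at a median of 0.52, and 21 higher and 3 lower of 32 at a median of 0.45. In 47 members every DHA library exceeded every control library in CPM, as in 27.0% of all tested genes, and in 7 every DHA library was below every control library, as in 38.4%.

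Without DHA 2, 57 members were higher and 7 lower with a median of 0.38, where 58.5% of all genes were called, 29.8% higher and 28.7% lower. Without both libraries numbered 2, 58 were higher and 11 lower with a median of 0.30, where 63.5% of all genes were called, 31.9% higher and 31.6% lower. The higher calls shared with the fit of 6 libraries numbered 52 in either case. The members are short and strongly expressed, with a median coding length of 456 bases against 1479 bases in 9392 other protein-coding genes of at least 10 CPM. Among the 2138 genes with a mean of at least 100 CPM, 30.5% were higher and the median was -0.09, and among the 61 members at that level 49 were higher, 0 were lower and the median was 0.53.

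**Figure D2:**
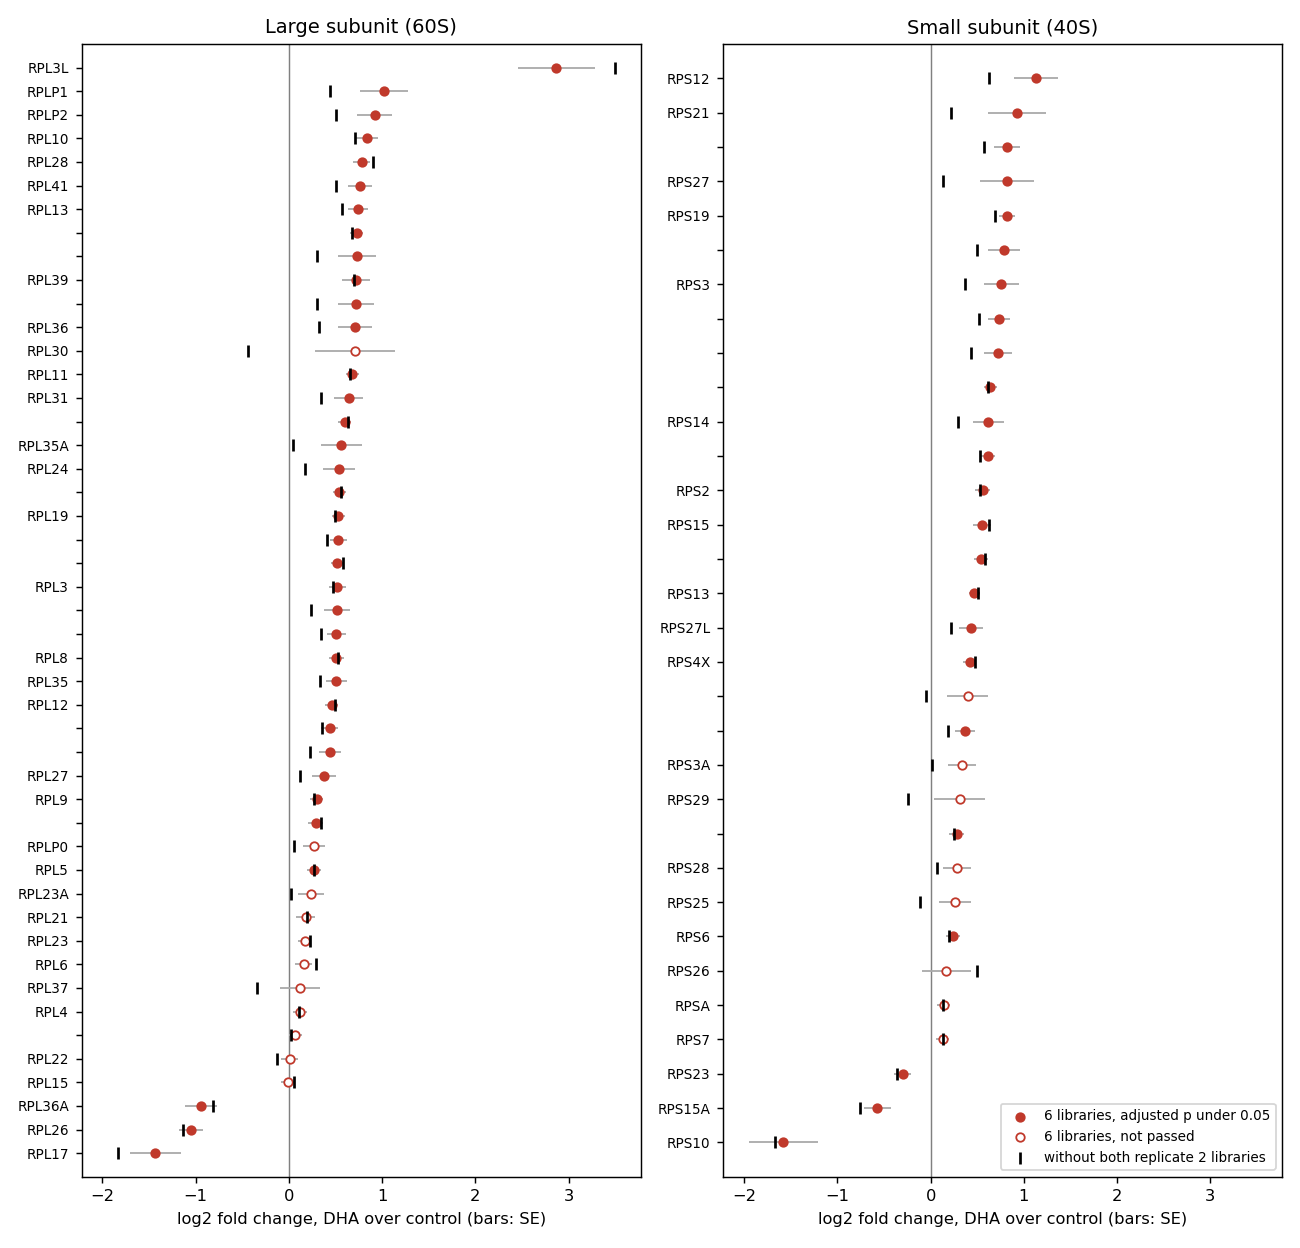
Log2 fold change of DHA over control for each of the 79 tested genes, large subunit on the left and small subunit on the right, with the standard error as a bar and names beside the genes described in the text; filled points passed an adjusted p under 0.05, and black ticks give the value without both libraries numbered 2. Most points lie right of 0, the ticks lie mostly left of the points, and 6 filled points lie left of 0.

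In the stalk of the large subunit 2 of the 3 genes were higher. RPLP1 and RPLP2 are the acidic proteins of the P stalk, which recruits the GTPases of translation, and RPLP0 is the base that holds them. RPLP1 had 382, 885 and 364 CPM in DHA and 286, 255 and 316 CPM in control. The groups did not overlap, and DHA 2 was more than 2 times the other DHA libraries. Its log2 fold change was 1.02 ± 0.26 (SE; edgeR adjusted p = 0.00532), 0.52 ± 0.08 without DHA 2 and 0.44 ± 0.04 without both libraries numbered 2. By DESeq2 RPLP1 did not pass, at 1.0 (adjusted p = 0.0572). RPLP2 had 370, 659 and 375 CPM in DHA against 262, 218 and 312 CPM in control, again without overlap and with DHA 2 far above. Its log2 fold change was 0.92 ± 0.19 (edgeR adjusted p = 0.00151), and 0.51 ± 0.05 without both libraries numbered 2. With an offset for GC content and length RPLP2 did not pass, at 0.26 ± 0.13 (edgeR adjusted p = 0.1). RPLP0 had 1730, 2306 and 1593 CPM in DHA and 1748, 1489 and 1733 CPM in control. Its groups overlapped, and it did not pass at 0.27 ± 0.12 (edgeR adjusted p = 0.0698), but was higher without DHA 3, at 0.38, stood at 0.14 ± 0.07 without DHA 2, and was higher with upper quartile scaling at 0.35. The members of the stalk therefore differed in call, a difference between genes that was not itself tested.

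RPL5 and RPL11 bring the 5S ribosomal RNA into the large subunit and are the pair that binds MDM2. Both were higher. RPL11 had 645, 711 and 636 CPM in DHA and 446, 442 and 440 CPM in control, which are narrow groups far apart. Its log2 fold change was 0.68 ± 0.07 (edgeR adjusted p = 5.98e-06, the smallest of the higher members) and 0.66 without both libraries numbered 2. RPL5 had 718, 823 and 716 CPM in DHA and 653, 697 and 647 CPM in control, where the highest control library lay close below the lowest DHA library. It rose by 0.27 ± 0.07 (edgeR adjusted p = 0.00771), but did not pass with library totals alone at 0.18 or by limma at 0.17.

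Near the peptidyl transferase centre, RPL10 joins the large subunit late, in the cytoplasm, and RPL3 reaches into the catalytic site. RPL10 had 375, 542 and 372 CPM in DHA and 238, 268 and 260 CPM in control. No DHA library overlapped the control libraries, and the change was 0.84 ± 0.12 on the log2 scale (edgeR adjusted p = 9.67e-05), or 0.71 without both libraries numbered 2. RPL3 had 2234, 2691 and 2194 CPM in DHA and 1773, 1803 and 1722 CPM in control, a log2 fold change of 0.52 ± 0.09 (edgeR adjusted p = 2.59e-04). RPL10L, the testis paralog of RPL10, had 0 counts in all 6 libraries and was not tested. RPL3L, which replaces RPL3 in heart and skeletal muscle, was found at a low level, with 2.16, 3.36 and 2.66 CPM in DHA and 0.158, 0.759 and 0.300 CPM in control. These are 32, 56 and 38 counts against 3, 12 and 5, and every DHA library was above every control library. RPL3L rose by 2.87 ± 0.41 (edgeR adjusted p = 9.17e-05), and by 3.50 ± 0.47 without both libraries numbered 2. Over 20 settings its log2 fold change ran from 1.42 to 3.63, and the control counts are few, so the size of this fold is uncertain. Per kilobase of coding sequence its mean level was 1.28 CPM, against 1712 CPM for RPL3.

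Genes of the exit tunnel, through which the new protein leaves the ribosome, differed in call. RPL4, in the tunnel wall, had 2172, 2363 and 2162 CPM in DHA and 2218, 2166 and 2190 CPM in control. The groups overlapped, and it did not pass at 0.12 ± 0.07 (edgeR adjusted p = 0.165), but was higher with upper quartile scaling at 0.20. RPL39, the smallest protein of the wall, had 12.7, 12.4 and 13.2 CPM in DHA and 7.23, 7.34 and 10.3 CPM in control, without overlap and without a rise in DHA 2. It rose by 0.72 ± 0.15 (edgeR adjusted p = 0.00142). Its paralog RPL39L, known from male germ cells, had 0 counts in all 6 libraries and was not tested. The third wall protein, RPL17, was lower and is described below. At the rim, where chaperones and the signal recognition particle dock, RPL19, RPL31 and RPL35 rose by 0.53 ± 0.07, 0.64 ± 0.16 and 0.51 ± 0.11, RPL23A did not pass at 0.24 ± 0.14 and RPL26 was lower. Without DHA 2 the values of RPL31 and RPL23A were 0.38 and 0.09. With pseudogenes added to their parents the falls of RPL17 and RPL26 did not pass, at -0.56 and -0.35. The level and the direction of these genes are uncertain, as described below, and the difference between tunnel genes was not itself tested.

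On the small subunit the largest rise belonged to RPS12, a protein of the beak of the subunit. RPS12 (chromosome 6, 132814441 to 132817564) had 246, 534 and 240 CPM in DHA and 164, 153 and 180 CPM in control. The groups did not overlap, and DHA 2 was again more than 2 times the other DHA libraries. The log2 fold change was 1.13 ± 0.24 (edgeR adjusted p = 0.00151), 0.69 ± 0.07 without DHA 2 and 0.63 ± 0.05 without both libraries numbered 2. In the authors' deposited table, which lists only genes past its limits, RPS12 has a log2 fold change of 1.11, and it is 1 of 5 members listed there, with RPL3L at 2.87, RPL26 at -1.07, RPL17 at -1.45 and RPS10 at -1.62. RPS21, a small subunit protein of under 100 CPM, had 52.0, 129 and 47.9 CPM in DHA and 41.1, 33.0 and 53.6 CPM in control. Here DHA 1 and DHA 3 lay below control 3, so the groups overlapped. RPS21 rose by 0.93 ± 0.31 (edgeR adjusted p = 0.0204), by 0.37 ± 0.15 without DHA 2 and by 0.22 ± 0.08 without both libraries numbered 2. The call ended without control 1 at 0.90 and without control 2 at 0.76, and RPS21 did not pass by DESeq2 at 0.91 or with the replicate block at 0.81.

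RPS2 and RPS3 line the channel by which mRNA enters the small subunit. RPS2 was the member with the most counts and, per kilobase of coding sequence, also the highest at 4351 CPM, ahead of RPL13 at 2841, RPL8 at 2282 and RPL12 at 2182. It had 4240, 4694 and 4362 CPM in DHA and 3154, 3122 and 3375 CPM in control, 2 groups well apart. It rose by 0.56 ± 0.08 (edgeR adjusted p = 8.31e-05), but with an offset for GC content and length did not pass at 0.14 ± 0.08 (edgeR adjusted p = 0.167). RPL13, a large subunit protein, had 1975, 2687 and 1930 CPM in DHA against 1446, 1325 and 1427 CPM in control and rose by 0.74 ± 0.11. RPS3, which also serves in DNA repair, rose by 0.76 ± 0.19, or 0.45 ± 0.08 without DHA 2. RPS19, the gene most often mutated in Diamond-Blackfan anaemia, rose by 0.82 ± 0.09 or 0.75 ± 0.06 without DHA 2. RPSA, a small subunit protein that also serves as a laminin receptor, had 1351, 1451 and 1338 CPM in DHA and 1367, 1329 and 1323 CPM in control. These overlapped, and RPSA did not pass at 0.14 ± 0.07 (edgeR adjusted p = 0.107), and was higher without DHA 2 at 0.14 ± 0.05 and with upper quartile scaling at 0.22. RPS4X, on the X chromosome, had 1190, 1191 and 1167 CPM in DHA and 921, 999 and 924 CPM in control and rose by 0.42 ± 0.07.

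Where the mRNA leaves the small subunit lie RPS14, RPS26 and RPS28. RPS14 rose by 0.62 ± 0.17 (edgeR adjusted p = 0.00711), or 0.36 ± 0.07 without DHA 2, but did not pass by DESeq2 at 0.61, and RPS28 did not pass at 0.28 ± 0.15. RPS26, which touches the mRNA upstream of the start codon, was the member in which DHA 2 was lowest relative to the other DHA libraries. It had 124, 51.5 and 132 CPM in DHA and 88.5, 93.4 and 110 CPM in control. RPS26 did not pass at 0.17 ± 0.26 (edgeR adjusted p = 0.594), and was higher by 0.53 ± 0.08 without DHA 2 (edgeR adjusted p = 1.22e-04). RPL30 was the opposite case, with 25.5, 106 and 25.9 CPM in DHA and 34.5, 25.5 and 42.0 CPM in control. It did not pass at 0.71 ± 0.43, was higher without DHA 1 at 1.04 and without DHA 3 at 1.03, and fell by 0.44 without both libraries numbered 2. RPL28, a large subunit protein, also had a low DHA 2 value, with 1135, 926 and 1123 CPM in DHA and 640, 668 and 682 CPM in control. It rose by 0.78 ± 0.09, and by 0.90 without both libraries numbered 2. RPS26, RPL30 and RPL28 were chosen for this after their values were seen.

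**Figure D3:**
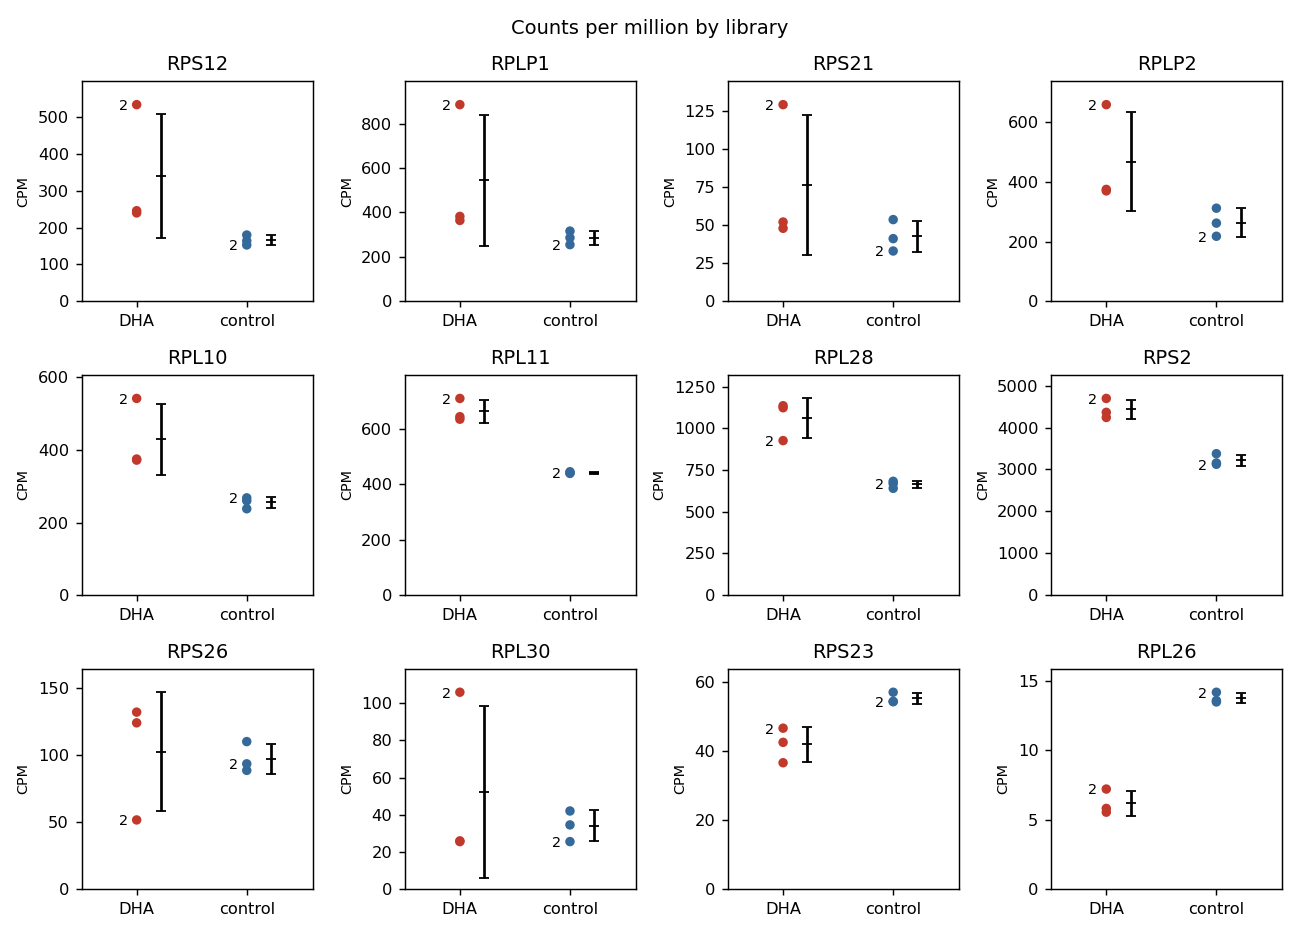
CPM of 12 genes in each library, DHA in red and control in blue, with the mean and SD of the 3 libraries beside each group as a bar and the libraries numbered 2 marked. DHA 2 is far above the other DHA libraries for RPS12, RPLP1, RPS21, RPLP2 and RPL30 and below them for RPL28 and RPS26, and for RPL11 and RPS2 the groups are apart with all 3 libraries close.

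The paralogs RPS27 and RPS27L, both of the small subunit, were both higher with all libraries. RPS27 had 126, 302 and 137 CPM in DHA and 118, 77.2 and 146 CPM in control, and its groups overlapped. The log2 fold change of 0.82 ± 0.29 (edgeR adjusted p = 0.0295) became 0.34 ± 0.17 without DHA 2 (edgeR adjusted p = 0.106), which ended the call, and it also did not pass without control 1 at 0.83, without control 2 at 0.58 or by DESeq2 at 0.80. RPS27L had 33.0, 42.8 and 30.2 CPM in DHA and 27.1, 24.3 and 32.5 CPM in control, also with overlap. It rose by 0.43 ± 0.13 (edgeR adjusted p = 0.0144) and passed without DHA 2 at 0.31 ± 0.11, but not without control 1 at 0.40, without control 2 at 0.33 or with library totals alone at 0.34. Per kilobase of coding sequence RPS27 stood at 599 CPM and RPS27L at 126 CPM over all libraries.

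Other calls also turned on single libraries. RPL35A lost its rise of 0.56 ± 0.22 without DHA 2, at 0.21 ± 0.13, and without control 1 and control 2, at 0.58 and 0.38. Without control 2 the calls of RPL24 and RPL27 also ended, at 0.39 and 0.26. Without control 1 those of RPL27 and RPS6 ended, at 0.37 and 0.24. RPS3A was higher without DHA 1 and without DHA 3, at 0.45 and 0.44. RPL6, RPL23 and RPS7 did not pass with all libraries and were higher without DHA 2, at 0.28, 0.25 and 0.15. RPL37 did not pass at 0.12 ± 0.21 and fell by 0.25 without DHA 2. Without both libraries numbered 2, RPL4 was higher at 0.11, and RPL22, RPS25 and RPS29 were lower, at -0.13, -0.11 and -0.24.

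The DHA 2 difference went with the length of the coding sequence and with the level of the gene. Over the 79 tested members its Spearman correlation was -0.38 with log2 coding length and -0.41 with log2 mean CPM. The Pearson correlations were -0.31 and -0.23. In members of up to 300 bases with at least 10 CPM, DHA 2 exceeded the mean of the other DHA libraries by a median of 0.89 on the log2 scale. The median was 0.68 for over 300 to 400 bases, 0.29 to 500, 0.20 to 700 and 0.15 above that. Other protein-coding genes followed the same order at a smaller size, with 0.23, 0.14, 0.10, 0.07 and 0.02. Control 2 went the other way, with a median in members of -0.29 at up to 300 bases and -0.04 above 700. Across the 79 tested members, the deviations of DHA 2 and of control 2 had a Pearson correlation of -0.40 and a Spearman correlation of -0.61, which is a description over genes that share the same 6 libraries. The part of length or level in the difference between the groups was not tested beyond these values.

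**Figure D4:**
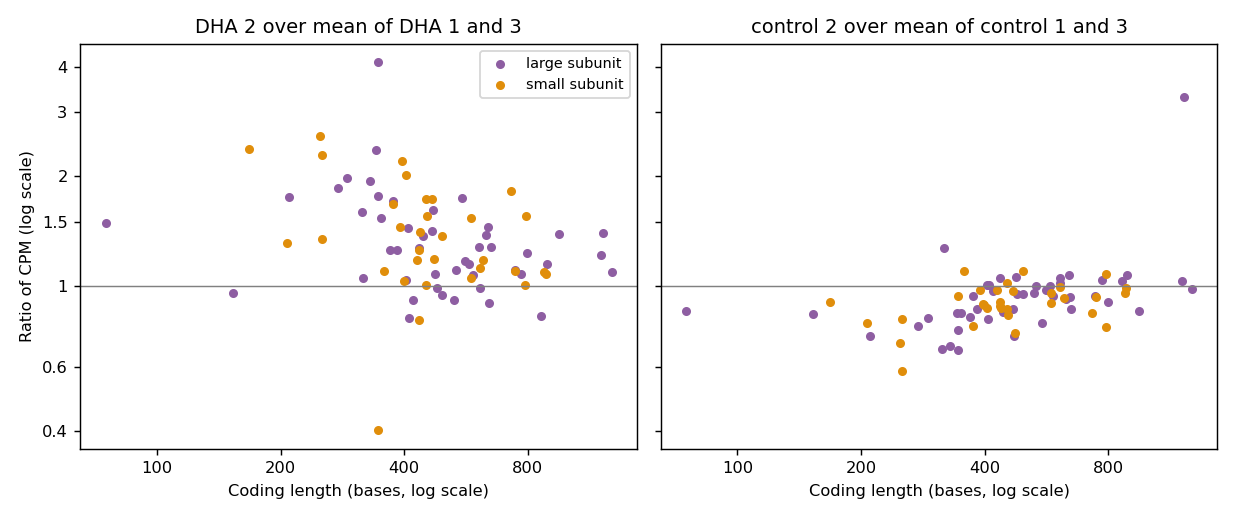
CPM in DHA 2 over the mean of DHA 1 and DHA 3 (left) and CPM in control 2 over the mean of control 1 and control 3 (right), both on a log scale, against the coding length of each of the 79 tested genes. Short genes lie mostly above 1 on the left and below 1 on the right, RPL30 is the highest point on the left at 4.11, RPS26 the lowest at 0.402, and RPL3L the highest on the right at 3.31.

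Set beside other protein-coding genes of like length, the members were higher in each length class. Their median log2 fold change was 0.72 at up to 300 bases, 0.54 to 400, 0.51 to 500, 0.53 to 700 and 0.30 to 2000, where other genes had 0.20, 0.17, 0.07, -0.04 and -0.08. Without both libraries numbered 2 the members had 0.22, 0.32, 0.36, 0.53 and 0.28, and the other genes 0.06, 0.07, 0.04, -0.07 and -0.07. The GC content of the transcript also went with the fold change. Other protein-coding genes had a median of -0.32 below 45% GC and 0.31 from 60% GC on, and the members had 0.30 and 0.56 in those classes, which hold 13 and 6 of them, and 0.78 in the 9 from 55% to 60%. Chromosome 19, which is rich in GC, carried 12 members, of which 11 were higher and 0 lower, with a median of 0.68. With an offset for GC content and length, 46 members were higher and 7 lower and their median was 0.31, where 27.1% and 26.5% of all genes were called and the median over all was 0.01. The calls that ended with that offset included those of RPL8, RPL27, RPL35, RPL36, RPLP2, RPS2 and RPS15, at 0.09, 0.23, 0.14, 0.20, 0.26, 0.14 and 0.07. RPLP1, RPL28, RPS19, RPS14, RPL19, RPL3 and RPL12 were still higher, at 0.63, 0.42, 0.45, 0.41, 0.30, 0.32 and 0.26.

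The 6 lower genes stood apart from the rest in level. RPS10, which the ligase ZNF598 marks with ubiquitin on collided ribosomes, had 0.405, 0.420 and 0.210 CPM in DHA and 1.16, 1.20 and 1.02 CPM in control. That is 6, 7 and 3 counts against 22, 19 and 17, with no overlap, and the log2 fold change was -1.58 ± 0.37 (edgeR adjusted p = 0.00317). RPL17, of the tunnel wall, had 0.81, 1.5 and 0.91 CPM in DHA and 3.59, 2.66 and 3.12 CPM in control, with every DHA library below every control library. It fell by 1.43 ± 0.27 (edgeR adjusted p = 7.60e-04). RPL26, of the tunnel rim, had 5.54, 7.21 and 5.81 CPM in DHA and 13.6, 14.2 and 13.5 CPM in control and fell by 1.05 ± 0.13 (edgeR adjusted p = 2.64e-05). RPL36A, near the exit site for tRNA, had 3.24, 3.42 and 3.29 CPM in DHA and 6.13, 7.97 and 6.41 CPM in control and fell by 0.94 ± 0.17.

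The other 2 lower genes belong to the small subunit. RPS15A had 11.3, 15.1 and 9.52 CPM in DHA and 20.0, 18.7 and 18.5 CPM in control and fell by 0.57 ± 0.14 (edgeR adjusted p = 0.00425). RPS23, which lies at the decoding centre, had 42.4, 46.5 and 36.5 CPM in DHA and 54.2, 54.2 and 56.9 CPM in control and fell by 0.30 ± 0.09 (edgeR adjusted p = 0.0108), a call that ended without DHA 3, at -0.21. In all 6 genes each DHA library was below each control library, and all 6 were also lower without DHA 2. Per kilobase of coding sequence they stood at 1.49 CPM for RPS10, 3.80 for RPL17, 16 for RPL36A, 22.9 for RPL26, 39.8 for RPS15A and 113 for RPS23. RPL15, a large subunit protein, was the further gene with every DHA library below every control library, at 754, 740 and 743 CPM in DHA and 799, 828 and 774 CPM in control, and it did not pass at -0.01 ± 0.07. With an offset for GC content and length RPL15 was called lower, at -0.23 ± 0.08 (edgeR adjusted p = 0.0295).

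The low counts of these genes went with other genes at the same place. In GENCODE 29, 9 tested members overlap another protein-coding gene on the same strand, and 5 of the 6 lower genes are among them. RPL17 overlaps the read-through gene RPL17-C18orf32, RPS10 overlaps RPS10-NUDT3, RPL36A overlaps RPL36A-HNRNPH2, RPL26 overlaps AC135178.2 and RPS15A overlaps AC138811.2. RPL17-C18orf32 and RPS10-NUDT3 had 0 counts in all 6 libraries. How the authors' counting treated reads that lie in 2 genes is not stated in the sources used here, so the level and the direction of these 5 genes are uncertain. Without the 9, 52 members were higher and 1, RPS23, was lower, with a median of 0.53. Among the rest of the 9, RPL36 was higher, RPS13 rose by 0.47 ± 0.06 and RPL22 did not pass. Whether counting used strand is not given either, and 29 tested members overlap a protein-coding gene on the opposite strand, among them RPL4, RPL5, RPL10, RPL28, RPLP2, RPS4X, RPS23 and RPS27L. Of the 43 members free of overlap on either strand, 36 were higher and 0 lower, with a median of 0.54, or 0.41 without both libraries numbered 2.

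Ribosomal protein genes have many processed pseudogenes, copies of their mRNA in the genome that can take part of their reads. The table held 539 rows named as such pseudogenes, of which 64 passed the filter on low counts, and 39 of these were higher and 2 lower, or 26 and 3 without DHA 2. All named pseudogenes together took 0.275%, 0.341% and 0.269% of counts in DHA and 0.225%, 0.209% and 0.232% in control, so DHA 2 was the highest there too. For some families most of the signal stood in the copies. RPS28 held 8.64, 11.3 and 8.68 CPM in DHA and 9.29, 7.15 and 8.81 CPM in control. Its copy RPS28P7 averaged 442 ± 72.8 CPM in DHA and 350 ± 14.7 CPM in control (SD, n = 3 each) and was higher by 0.44 ± 0.11. Pseudogenes held 97.8% of the CPM of RPS28 and its copies, 82.0% for RPL39, 76.0% for RPS10, 60.7% for RPL41, 55.4% for RPL21, 54.9% for RPL23A, 48.3% for RPL9 and 41.3% for RPL26. How reads were divided within these families is uncertain. With each pseudogene added to its parent, 56 members were higher and 3 lower. The falls of RPS10, RPL17 and RPL26 then did not pass, at -0.21, -0.56 and -0.35, RPL24 did not pass at 0.45, and RPL21, RPS28 and RPS3A were higher, at 0.44, 0.44 and 0.40.

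**Figure D5:**
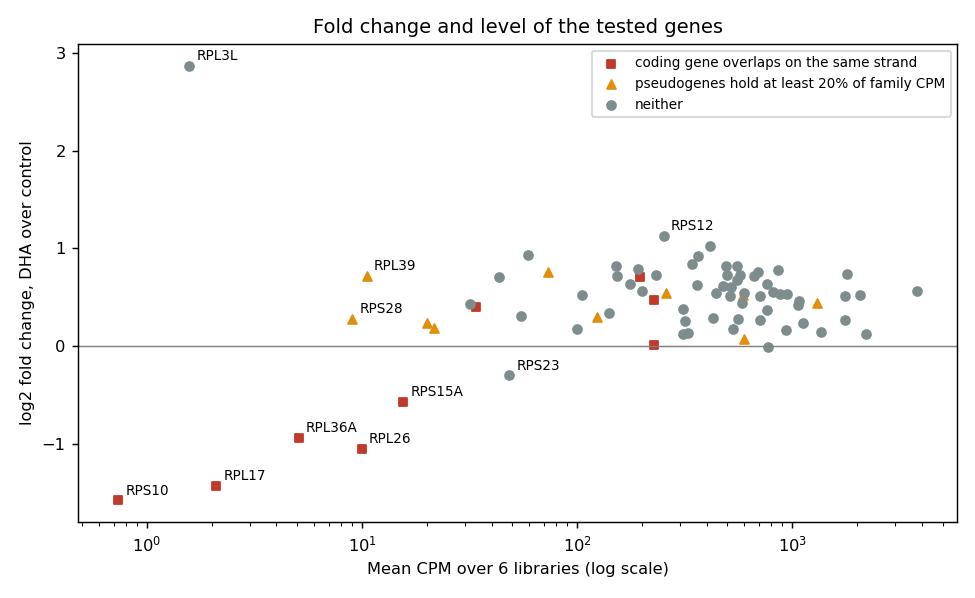
Log2 fold change of DHA over control against the mean CPM of the 6 libraries (log scale) for the 79 tested genes; red squares overlap a protein-coding gene on the same strand, orange triangles have at least 20% of their family's CPM in pseudogenes, and grey circles have neither. The lower genes lie at the low end of the level axis, 5 of them as red squares, and the genes above 100 CPM lie between -0.01 and 1.13.

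Members with and without the tract at the start both held more higher than lower genes. Of the 46 tested members with the tract printed above, 36 were higher and 4 lower, with a median of 0.61, and of the 17 tested members whose listed start lacks it, 9 were higher and 1 lower, with a median of 0.31. Without both libraries numbered 2 these medians were 0.34 and 0.27. The tract was between 5 and 19 bases long, with a median of 8. Within the 300 bases around the start, on either strand, the letters CCGGAAG, a form bound by ETS factors such as GABPA, stood in 22 of 64 members (34.4%) and in 10.6% of all genes. In 2 of the 22 they overlap the tract. GGGCGG, known from SP1, stood in 57.8% of members and 44% of all genes, and TATAAA in 9.38% and 12.1%.

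Most proteins of the ribosome whose names fall outside the rule were also higher. Of 7 tested, 5 were higher and 1 lower, with a median of 0.48. RACK1, the scaffold protein of the small subunit, averaged 1357 ± 158 CPM in DHA and 1000 ± 31.3 CPM in control (SD, n = 3 each) and rose by 0.54 ± 0.08. RPL22L1 and RPL36AL rose by 0.48 and 0.32, and RPL7L1, which acts in ribosome assembly, fell by 0.62.

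A further list held 22 tested mRNAs taken as TOP mRNAs, many of them of translation and with RACK1 again among them. Whether each carries the tract was not examined here. Of the 22, 7 were higher and 6 lower, with a median of 0.06. These shares are near those of all tested genes, of which 29.6% were higher and 30.1% lower, with a median of 0.01, and the counts of the lists that follow are given as a description beside the same shares. EIF4A2, a helicase of initiation, rose by 0.66, while EIF4B, its cofactor, fell by 0.59, EIF2S3 fell by 0.59 and the importin IPO5 fell by 0.66. The elongation factors EEF1A1 and EEF2 did not pass, at 0.08 and 0.12. Of 26 tested genes of TOP mRNA binding and mTORC1 control, 8 were higher and 10 lower, with a median of -0.11. SESN2, a stress-induced inhibitor of mTORC1, averaged 277 ± 20.4 CPM in DHA and 57.2 ± 21.9 CPM in control and rose by 2.38. RPS6KB1, the kinase of RPS6, fell by 0.71, the cap-binding protein EIF4E fell by 0.76, and its inhibitor EIF4EBP2 fell by 0.90. LARP1, which binds the tract, fell by 0.36.

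Of 15 tested chaperones and importins that handle ribosomal proteins before assembly, 2 were higher and 7 lower, with a median of -0.21, a difference from all tested genes that was not tested. The importins TNPO1, IPO9 and IPO5 fell by 1.04, 0.69 and 0.66, and HEATR3, which escorts RPL5 into the nucleus, fell by 0.94. Higher were PDCD2L, which acts in export of the small subunit, at 0.60 and NACA, which also binds at the tunnel exit, at 0.29. Of 18 genes of late maturation 5 were higher and 5 lower, with a median of 0.08. The recycling factor ABCE1 fell by 0.82, the export receptor XPO1 by 0.66 and its adaptor NMD3 by 0.56, while SBDS, which releases EIF6 from the large subunit, rose by 0.70.

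Around the 5S particle and MDM2, 4 of 9 tested genes were higher and 1 lower, with a median of 0.18. CDKN1A, which encodes p21, averaged 715 ± 8.47 CPM in DHA and 292 ± 22.6 CPM in control and rose by 1.39. CDKN2A rose by 0.54 and NOP53, an assembly factor of the large subunit, by 0.64. MDM2 did not pass at -0.09. Of 21 genes of ribosome stalling and quality control, 7 were higher and 8 lower, with a median of -0.15. The ubiquitin ligase LTN1 rose by 0.86, and HBS1L, GCN1 and the ribosome-bound kinase MAP3K20 fell by 0.84, 0.64 and 0.64. Of 11 factors reported at ribosomal protein promoters, 2 were higher and 5 lower, with a median of -0.13. SP1, ZBTB7A and YY1 fell by 1.04, 1.06 and 0.43, and GABPB1 and TBPL1 rose by 0.58 and 0.51. Genes of the mitochondrial genome gave 11 higher and 3 lower of 15, with MT-RNR2 at 1.59 and MT-ND6 at -1.22.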

How the data were processed

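The authors deposited read counts per gene. Per the submitters' processing notes, HISAT2 and DESeq2 1.18.1 were used; the counting tool, strand setting, annotation and build are not given in any source used here. A deposited table named as FPKM holds CPM, equal to count over library total to a relative difference of 9.95e-15. The authors also deposited a comparison table with their log2 fold changes and p-values. Of 40846 rows, 1696 share 143 names with identical counts; 1 row per name left 39293. Of these names, 39167 were found in GENCODE 29 (GRCh38), 96.8% with the same coordinates, and it gave gene types, overlaps, coding length and GC content. No per-sample column of another series was found.

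The counts were fitted with edgeR 4.0.16 in R 4.3.3 (filterByExpr, TMM, glmQLFit, glmQLFTest, Benjamini-Hochberg over 15811 genes, threshold 0.05). The fit was tested on simulated data with the same dispersion for every gene and no library standing apart, a simpler setting than these data. Common BCV was 0.0902 with 4 residual degrees of freedom. It was 0.0616 with 3 without DHA 2, and 0.0347 with 2 without both libraries numbered 2. At an unadjusted p under 0.05, 10053 genes passed. Alternatives used DESeq2 1.42.0, limma 3.58.1 on log2(CPM + 1) and log2(CPM + 0.5), other scalings and filters, a GC and length offset, the replicate number as a block, and each library left out. Leaving out both libraries numbered 2, adding pseudogenes, leaving out overlapping members and counting groups without overlap were chosen after seeing the data. Python 3.11.15, numpy 2.4.6, pandas 2.3.3 and matplotlib 3.10.9 were also used. Fold changes are DHA over control, with SE. This SE was derived from the test, as the size of the log2 fold change over the square root of the quasi-likelihood F.

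The members and lists were chosen with earlier results of these data known. Values in every library are given for the 6 highest and 6 lowest members by log2 fold change, members called lower, the 4 with the highest CPM, the stalk proteins, RPSA, RPL5, RPL11 and paralogs; lists name up to 4 genes of smallest adjusted p and those called in the rarer direction where 3 or fewer were. Values of some single genes are not reported here; counts and medians over the lists include them.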

Additional observations from a re-analysis of the deposited data

How the results depend on the processing

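Over the alternatives the members higher in DHA numbered between 39 and 62, against 54, and none of the 60 calls reversed. The higher calls of 34 members held in all 20 settings and 20 were lost in at least 1; of the 6 lower calls 2 held in every setting and 4 did not. The median log2 fold change of the members, 0.51, was 0.31 with an offset for GC and length, 0.31 with the replicate block beside it, and 0.30 without both libraries numbered 2. Members lower in DHA, 6 in all, were 11 without both libraries numbered 2, 3 with pseudogenes added to their parents and 1 without overlapping members. The last 2 change the counts or members by construction. The first comes from a fit of smaller spread, with a common BCV of 0.0347 against 0.0902, and its cause was not tested. With 1 library left out at a time, the higher count ran from 47 to 58, the lower count from 5 to 7, the median from 0.38 to 0.56 and the ratio of shares from 1.21 to 1.34; the median of 0.38 is without DHA 2. Members that did not pass and were lower with libraries left out were RPL37, at -0.25 without DHA 2 and -0.34 without both libraries numbered 2, and, without both, RPL22 at -0.13, RPL30 at -0.44, RPS25 at -0.11 and RPS29 at -0.24. Over the fits with libraries left out these 5 reached 0.29, 0.08, 1.04, 0.39 and 0.54 at the other end, each without DHA 1. With library totals alone the median of all genes moved to -0.09, calls went to 3852 higher and 5612 lower of all genes from 4674 and 4757, and 46 members were higher. DESeq2 called 46 members higher and limma 45. The replicate block gave 49 higher and 6 lower, with a median of 0.50. The deviations of libraries that share a number correlated at 0.04, -0.17 and -0.14 over 9761 genes. Those of libraries with unlike numbers ran from -0.21 to 0.22. Values for shared numbers lie within that range, so they cannot decide whether the numbers pair the samples. Depth limits RPS10, RPL17 and RPL3L, which rest on under 100 counts a library.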

Other observations

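Among low pseudogenes, RPL7P19 had 2.57, 2.4 and 2.03 CPM in DHA and 0, 0.0633 and 0.18 CPM in control, where no library exceeded 3 counts, so no fold is given. RPL9P29 was higher by 2.83. Its 0.211, 0.253 and 0.24 CPM in control lay just above the worth of 3 counts, so the size of this fold is uncertain. RPL13AP20 was higher by 1.57. RPSAP52 was 1 of the 2 lower ones, at -1.13 (edgeR adjusted p = 9.93e-05). These 4 had the smallest adjusted p among the copies. Of 51 small nucleolar RNA genes inside members, 37 had 0 counts in all libraries, and the 1 that could be tested, SNORD101 in RPS12, was higher by 0.97 ± 0.31 (edgeR adjusted p = 0.0184); poly(A) selection removes most RNA of this kind. The 28 tested members that host such genes had 19 higher and 1 lower at a median of 0.50, and the other 51 had 35 higher and 5 lower at a median of 0.51.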
